A study of Mus musculus with 4 samples.

Results

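Cytosolic ribosomal protein genes were chosen by symbol from the deposited gene tables: *Rpl* or *Rps* followed by a number, with an optional a, x, l, al or l1 suffix, and *Rplp0*, *Rplp1*, *Rplp2* and *Rpsa*. The rule used no measured value and found 87 of 55335 genes. By symbol 51 belong to the large subunit, 33 to the small subunit and 3 to the stalk. GENCODE M21 annotates 83 of them as protein coding and 4 (*Rpl32l*, *Rpl6l*, *Rps12l1* and *Rps4l*) as processed pseudogenes, which the symbol rule includes. Reads were found for 84 members in at least 1 library. The members without a read were *Rpl10l*, *Rpl3l* and *Rps12l1*. *Rpl10l* is known as a testis gene and *Rpl3l* as a gene of striated muscle.

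The study compared oocytes of the genotype labelled mutant with oocytes of the genotype labelled control, both on the C57BL/6 strain, with 2 libraries each. The series describes mice with a single-base change where *Ezh2* exon 3 is alternatively spliced, made in a long and a short version. Which version the oocytes labelled mutant carried is not stated. *Ezh2* encodes the histone H3 lysine 27 methyltransferase of Polycomb repressive complex 2. RNA was amplified by Smart-Seq2, which copies full-length polyadenylated RNA from very little material. The labels give no age, number of oocytes per library or animal of origin, so p-values here reflect the spread among these 4 libraries alone, which may be technical.

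Ribosomal proteins assemble with ribosomal RNA in the nucleolus into a small subunit, which reads the messenger RNA, and a large subunit, which joins the amino acids. Most mammalian ribosomal protein messenger RNAs begin with a C followed by a run of pyrimidines, the terminal oligopyrimidine tract, through which their translation is controlled together by mTOR and Larp1. Oocytes stock ribosomes and messenger RNA during growth and are known to remove many of the stored transcripts, ribosomal protein messenger RNAs among them, as they mature.

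A pyrimidine tract is a feature that the symbol rule did not use. The table of RefSeq starts (GRCm38.p6) held 64 of the 87 members. An unbroken run of at least 8 C or T letters on the gene's strand, touching the 10 bases on either side of a start, was found in 30 of them (46.9%). The same letters were found in 4259 of 27025 genes of that table (15.8%). Such a run may lie before the listed start and need not begin the message with a C. It is thus no measure of the terminal oligopyrimidine tract itself. Below are 40 bases, 20 on either side of the listed start, for 6 members whose values differ in the ways described later, with the run in capitals. *Rpl10* has no run of that length in its window and is in lower case throughout.

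Rps27l, chr9:66946066-66946105, plus strand: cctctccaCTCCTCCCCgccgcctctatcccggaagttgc
Rps15a, chr7:118116128-118116167, minus strand: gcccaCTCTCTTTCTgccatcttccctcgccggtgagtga
Rplp2, chr7:141447631-141447670, plus strand: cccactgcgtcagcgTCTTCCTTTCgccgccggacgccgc
Rpl10, chrX:74270796-74270835, plus strand: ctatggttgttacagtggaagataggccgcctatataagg
Rps6, chr4:86857348-86857387, minus strand: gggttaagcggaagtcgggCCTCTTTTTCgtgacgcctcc
Rps9, chr7:3704021-3704060, plus strand: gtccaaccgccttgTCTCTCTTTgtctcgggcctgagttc

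Runs were found on both sides of the comparison. *Rps27l* and *Rps15a*, which were lower in both mutants, hold a run, and so do *Rps6* and *Rps9*, which were higher in both. In *Rps27l* and *Rps15a* the run ends before the listed start. Over the members with a read and a listed start, the median log2 ratio of mutant 1 to the mean of the controls was 1.85 for the 30 with a run and 1.94 for the 32 with a shorter one. For mutant 2 these medians were 0.21 and 0.52.

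The libraries held 26575938 and 26587327 counts in mutants 1 and 2 and 26617816 and 25090032 in controls 1 and 2. Oocyte markers were read at like levels in all 4 libraries, *H1foo*, *Oosp1* and *Gdf9* among them, and 0 of 19 tested oocyte markers passed the test. Markers of other cells were not even between libraries. Of 24 cumulus and granulosa markers, genes of the somatic cells around the oocyte, 18 were highest in mutant 1. Their summed level was 710 and 376 CPM (counts relative to the scaled library size) in the mutants and 441 and 377 CPM in the controls. *Bmpr1b*, also known from oocytes, was even, at 295 and 313 CPM in the mutants and 326 and 289 CPM in the controls. *Gja1*, which encodes a gap junction protein, had 99.3 and 7.96 CPM in the mutants and 10.9 and 0 CPM in the controls. For *Inhba*, which encodes an inhibin subunit, the values were 86.7 and 1.92 CPM in the mutants and 8.98 and 0.198 CPM in the controls. Of the whole list 1 and 9 genes were at 0 in mutants 1 and 2, against 7 and 11 in controls 1 and 2, and *Foxl2* had a single count in mutant 1. Of the 13 cumulus markers tested 0 rose and 1 fell, *Kitl*, which oocytes also express, at 17.8 and 15.3 CPM in the mutants and 38.6 and 32.4 CPM in the controls (edgeR adjusted p = 0.0468). Of 21 leukocyte markers 16 were highest in mutant 2. Their summed level was 144 and 407 CPM in the mutants and 274 and 203 CPM in the controls, with 7 and 0 of them at 0 in the mutants and 12 and 15 in the controls. The defining gene *Ptprc* had 0.107 and 43.2 CPM in the mutants and 0 in both controls, and *Coro1a* had 0 and 64.3 CPM in the mutants and 0 in both controls. *Ms4a1* had 129 and 158 CPM in the mutants and 265 and 196 CPM in the controls. Of the 7 leukocyte markers tested 1 rose, the lysozyme gene *Lyz2*, at 8.03 and 3.83 CPM in the mutants and 0.362 and 0.0397 CPM in the controls (edgeR adjusted p = 0.0437), and 0 fell. Summed fibroblast and theca markers were at 15.8 and 7.32 CPM in the mutants and 7.21 and 6.75 CPM in the controls, and summed red blood cell markers at 1.78 and 0.526 CPM in the mutants and 2.26 and 0.397 CPM in the controls.

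Mutant 1 stood apart from the other libraries in the ribosomal protein genes. It was the highest of the 4 libraries for 77 of the 84 members with a read, against 30.0% of all tested genes. The 84 include 12 with too few counts to be tested, while the share is over tested genes alone. This holds wherever the 84 are set beside all tested genes. Mutant 2 was the highest for 1 member, control 1 for 5 and control 2 for 1. The lowest library was mutant 2 for 23 members, control 1 for 8 and control 2 for 53. The order mutant 1, mutant 2, control 1, control 2 from high to low held for 40 members, and for 8.53% of all tested genes. Ties, as in *Rpl38* with counts in mutant 1 alone, were placed in this order. A tie for the lowest was given to the library that comes first in it.

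Set against the mean of the controls, mutant 1 had a median log2 ratio of 2.05 over the 84 members, with quartiles of 0.996 and 3.20, while the median of all tested genes was 0.06. More than 2-fold higher were 62 members (17.7% of all tested genes), and more than 2-fold lower was 1 (9.72% of all tested genes). Mutant 2 had a median of 0.45, with quartiles of -0.21 and 1.10, beside 0.03 for all tested genes. In mutant 2, 25 members were more than 2-fold higher (13.7% of all tested genes) and 7 more than 2-fold lower (9.55% of all tested genes). The controls differed from each other as well. Control 1 lay above control 2 for 72 members with a median log2 ratio of 0.54, and 24 members were more than 2-fold higher in it (7.38% of all tested genes), with 0 more than 2-fold lower (6.34% of all tested genes). The median of mutant 2 against the mean of the controls, 0.45, and that of control 1 against control 2, 0.54, use unlike references. Each control lies nearer to the mean of both than to the other control, so the sizes cannot be compared directly. Both mutant medians use the same controls, and single libraries have no replicate, so these are descriptions. The cumulus markers were also highest in mutant 1 and higher in control 1 than in control 2, and their part in these values was not tested.

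**Figure D1:**
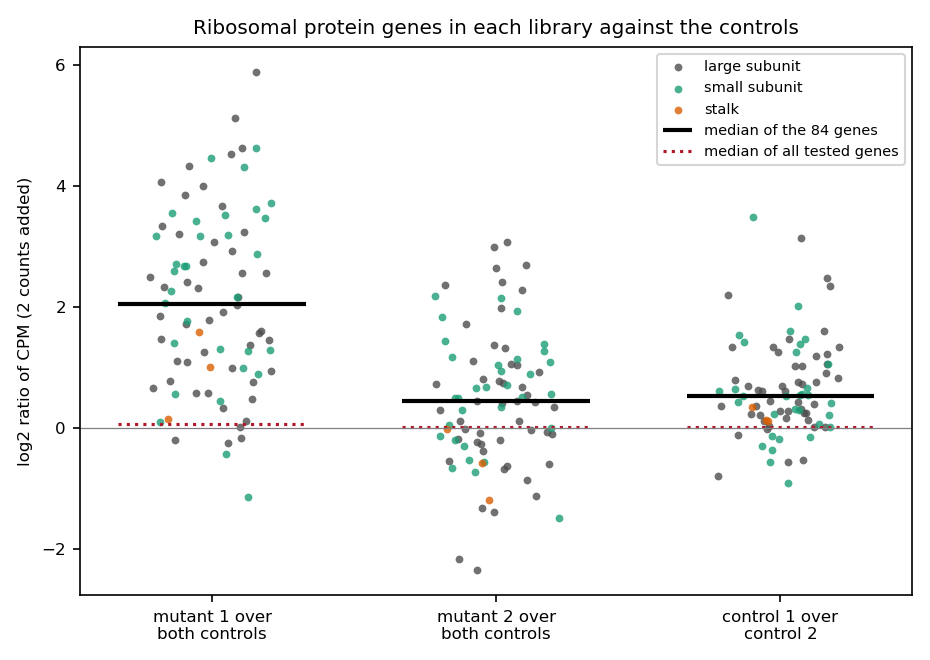
Each point is 1 of the 84 ribosomal protein genes with a read, and the vertical axis is its log2 ratio of CPM (2 counts added) for mutant 1 and mutant 2 over the mean of both controls and for control 1 over control 2. Black bars are medians over the members (2.05, 0.45 and 0.54) and dotted lines those of all tested genes.

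The summed reads of the members did not separate the groups. They came to 2217 and 995 CPM in mutants 1 and 2, against 1242 and 1096 CPM in controls 1 and 2. The mean was 1606 ± 864 CPM in the mutants and 1169 ± 103 CPM in the controls (SD, n = 2 each), with the lowest sum in a mutant. The log2 ratio of the sums was 0.35 (two-sided exact permutation test, p = 1; the 6 splits of these libraries allow no p under 0.333), and without mutant 1 it was -0.23. Without the 3 most abundant members, *Rps27l* among them, it was 0.66 (p = 0.667 in the same exact test). In these bulk libraries fewer cells of a type and less RNA per cell cannot be told apart. Of all counts, 0.235% and 0.0997% fell on the members in the mutants and 0.116% and 0.110% in the controls.

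The make-up of the sum differed more than the sum itself. In TPM (a relative level per transcript length, deposited by the authors), the median member was at 28.4 and 7.93 in the mutants and at 5.19 and 3.44 in the controls. At least 10 TPM were reached by 61 and 39 members in the mutants and by 31 and 26 in the controls. Under 1 TPM lay 5 and 12 members in the mutants and 21 and 27 in the controls. The 10 members with the highest mean TPM over all libraries were taken as a fixed set. They held 52.6% and 68.4% of the summed TPM in the mutants and 78.5% and 83.4% in the controls. *Rps27l* alone held 13.0% and 24.2% in the mutants and 42.0% and 46.0% in the controls. Members with lower levels had larger ratios. The 32 members with a mean of at least 20 TPM had a median log2 ratio to the controls of 1.30 in mutant 1 and 0.02 in mutant 2, while the 52 others with a read had 2.37 and 0.55. The members are short, with a median length of 724 bases against 2038 for all tested genes. Among the 84, length and the ratio of mutant 1 had a Spearman correlation of 0.07, which is across genes of the same libraries and is a description.

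Between the groups, edgeR's quasi-likelihood test on the count matrix left 72 members testable after its filter on low counts. Of them 1 passed at an adjusted p under 0.05, *Rps27l*, which was lower in the mutants, and 0 were higher; over all 15493 tested genes 3.75% passed, 1.77% higher and 1.98% lower. At an unadjusted p under 0.05, 31 members were higher, against 12.5% of all tested genes, and DESeq2 called 21 members higher and 2 lower (6.05% and 5.59% of its tested genes). The log2 fold change was positive for 63 of 72 members with a median of 1.31, beside 53.3% of all tested genes with a median of 0.05. Without mutant 1 the median was 0.37 with 43 positive, and without mutant 2 it was 2.19. For 11 of the 72 the controls averaged under 10 counts, and 9 of these had at least 10 counts in both mutants. As such members pass the filter because they are high in the mutants, the median over tested members is a description and no measure of all 87. Over the 84 members with a read, the groups did not overlap for 44 with both mutants higher (28.8% of all tested genes). They did not overlap for 4 with both mutants lower (25.7% of all tested genes), and they overlapped or tied for 36.

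*Rps27l* (ENSMUSG00000036781.13, chr9:66946086-66949516 in GRCm38) encodes a small subunit protein close to Rps27, known in human cells as a p53 target. In TPM it was the most abundant member in every library. It had 944 and 755 TPM in the mutants, against 1657 and 1791 TPM in the controls, and 3412 and 2542 counts in the mutants, against 6640 and 6674 counts in the controls. The groups did not overlap, and both mutants stood well below 2 nearly equal controls. The mean was 108 ± 18.2 CPM in the mutants and 266 ± 1.79 CPM in the controls (SD, n = 2 each). *Rps27l* fell by 1.30 on the log2 scale (SE 0.166, edgeR adjusted p = 0.0161), which is 2.46-fold. Without mutant 1 the log2 fold change was -1.50 (adjusted p = 6.86e-05) and without mutant 2 it was -1.14 (adjusted p = 0.0253). With a single control the size stayed near but the test was not passed, with -1.30 without control 1 (adjusted p = 0.212) and -1.35 without control 2 (adjusted p = 0.195).

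Its paralog *Rps27* (ENSMUSG00000090733.6, chr3:90212522-90213651) went the other way. *Rps27* had 174 and 30 counts in the mutants, against 15 and 9 in the controls, with both mutants higher. Its log2 fold change was 2.92 (SE 0.895, edgeR adjusted p = 0.119), which did not pass. To show how alike the pair are for the placing of reads, their coding sequences without the stop codon follow from the GENCODE M21 transcripts, with the bases at which they differ in capitals.

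Rps27l coding sequence: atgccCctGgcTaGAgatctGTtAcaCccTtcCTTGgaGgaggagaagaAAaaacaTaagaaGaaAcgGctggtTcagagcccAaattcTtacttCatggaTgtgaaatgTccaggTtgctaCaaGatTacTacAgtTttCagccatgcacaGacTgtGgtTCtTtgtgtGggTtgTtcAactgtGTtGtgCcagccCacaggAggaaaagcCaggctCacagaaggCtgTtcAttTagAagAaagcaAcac
Rps27 coding sequence: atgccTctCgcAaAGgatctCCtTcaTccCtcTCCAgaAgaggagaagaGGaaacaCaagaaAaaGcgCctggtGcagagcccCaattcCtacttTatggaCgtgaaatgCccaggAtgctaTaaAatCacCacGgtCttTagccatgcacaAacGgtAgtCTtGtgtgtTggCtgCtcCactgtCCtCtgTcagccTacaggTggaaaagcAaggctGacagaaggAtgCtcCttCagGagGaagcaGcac

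The pair differ at 60 of 252 coding bases (76.2% identity), and the longest stretch they share is 11 bases. *Rps27* had at most 174 counts in a library. Bases outside the coding sequence were not compared, and the placing of reads between the pair was not tested. In the RSEM table, which divides reads among genes they fit, *Rps27l* had a log2 fold change of -1.28 (adjusted p = 0.0157).

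Among the large subunit genes, 37 of 42 tested members had a positive log2 fold change with a median of 1.28, and 0 passed. Their reads summed to 1204 and 584 CPM in the mutants and to 597 and 513 CPM in the controls. Mutant 1 was the highest library for 44 of the 49 with a read.

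*Rpl4*, whose protein reaches into the peptide exit tunnel, had 7811 and 4623 counts in the mutants, against 3170 and 3245 counts in the controls, both mutants above 2 nearly equal controls, with a log2 fold change of 0.81 (SE 0.231, adjusted p = 0.0986). *Rpl10*, one of the last proteins to join the large subunit, had 648 and 239 TPM in the mutants and 181 and 141 TPM in the controls. Mutant 1 stood apart for *Rpl10*, and the log2 fold change of 1.27 (SE 0.457) did not pass (adjusted p = 0.165).

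*Rpl6* (chr5:121204481-121209241) had the lowest adjusted p of the members that were higher. It had 2914 and 627 counts in the mutants, against 156 and 33 counts in the controls, with a log2 fold change of 4.06 (SE 0.921, adjusted p = 0.0648). The groups did not overlap, and the mutants differed from each other by about the same ratio as the controls. *Rpl9* had the largest log2 fold change of the tested members, 5.17 (SE 1.41, adjusted p = 0.0905), on 295 and 38 counts in the mutants and 8 and 0 counts in the controls. *Rpl24*, whose protein forms a bridge between the subunits, had 245 and 38 counts in the mutants and 13 and 4 in the controls, a log2 fold change of 3.88 (SE 1.03, adjusted p = 0.0860). For *Rpl9* and *Rpl24* these ratios rested on few control reads.

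*Rpl17*, whose protein lies near the tunnel exit, and *Rpl32* were abundant in all libraries. *Rpl17* had 243 and 153 TPM in the mutants and 205 and 227 TPM in the controls, which overlap, though in CPM both mutants lay below both controls. *Rpl32* had 268 and 160 TPM in the mutants and 141 and 147 TPM in the controls. Their log2 fold changes were -0.38 (adjusted p = 0.286) and 0.29 (adjusted p = 0.570). *Rpl5*, which with *Rpl11* and 5S RNA binds Mdm2, had 1442 and 682 counts in the mutants and 670 and 619 in the controls, so that mutant 1 alone stood apart (log2 fold change 0.58, adjusted p = 0.352). *Rpl37a* had 125 and 77 counts in the mutants and 162 and 107 in the controls, overlapping, with a log2 fold change of -0.55 (adjusted p = 0.493).

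Of the small subunit genes 24 of 27 tested members had a positive log2 fold change, with a median of 1.73, 0 passed as higher and *Rps27l* passed as lower. The summed reads were 814 and 339 CPM in the mutants and 552 and 499 CPM in the controls, so mutant 2 had the lowest sum. Mutant 1 was the highest library for 30 of the 32 with a read.

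*Rps6*, the substrate of the S6 kinases, had 2828 and 671 counts in the mutants, against 411 and 281 counts in the controls. Both mutants were higher, mutant 1 by far more, and the log2 fold change of 2.18 (SE 0.609) did not pass (adjusted p = 0.0950). *Rps9* (chr7:3703993-3706897) had 2051 and 401 counts in the mutants, against 142 and 46 counts in the controls, with a log2 fold change of 3.54 (SE 0.845, adjusted p = 0.0707). *Rpsa*, also known as the laminin receptor precursor, had 683 and 186 counts in the mutants and 80 and 28 in the controls, with a log2 fold change of 2.85 (SE 0.738, adjusted p = 0.0824). For *Rps6*, *Rps9* and *Rpsa* the groups did not overlap. With DESeq2 *Rpl6* (adjusted p = 0.0235), *Rps9* (adjusted p = 0.0351) and *Rpsa* (adjusted p = 0.00086) passed, and *Rps6* (adjusted p = 0.109) did not. Other named members that DESeq2 called higher were *Rpl24* (adjusted p = 0.0030), *Rpl4* (0.0121), *Rpl23a* (0.0157), *Rpl22l1* (0.0160), *Rpl7l1* (0.0325) and *Rps4x* (0.0473). Beside *Rps27l*, DESeq2 called *Rps15a* lower (adjusted p = 0.0399). *Rps15a* had 1401 and 1087 counts in the mutants and 1705 and 1658 in the controls, the second small subunit gene after *Rps27l* with both mutants lower, at a log2 fold change of -0.57 (SE 0.175, adjusted p = 0.118). *Rps2* had 4576 and 2184 counts in the mutants and 3170 and 2778 in the controls, and *Rps14* had 1051 and 272 counts in the mutants and 452 and 313 in the controls. For both the controls lay between the mutants, with log2 fold changes of 0.04 (adjusted p = 0.957) and 0.63 (adjusted p = 0.559).

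**Figure D2:**
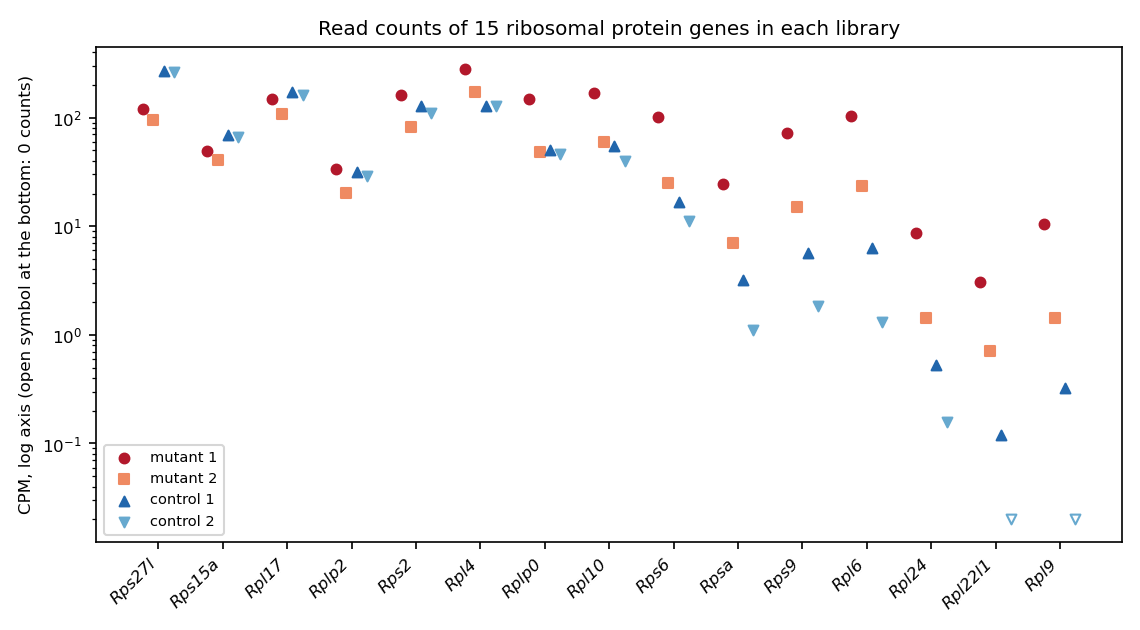
Points give the CPM of 15 ribosomal protein genes in each library on a log axis, with open symbols at the bottom for 0 counts. From left to right the genes run from those lower in both mutants (*Rps27l*, *Rps15a*) to those with the largest log2 fold changes (*Rpl22l1*, *Rpl9*), in which mutant 1 is highest and control 2 lowest.

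The stalk proteins, which recruit the translation factors that use GTP, were not alike. *Rplp0*, the base of the stalk, had 410 and 129 TPM in the mutants and 114 and 110 TPM in the controls. Mutant 2 was thus close to the controls, and the log2 fold change of 1.004 (SE 0.466, adjusted p = 0.258) was -0.035 without mutant 1. *Rplp1* had 535 and 109 counts in the mutants and 263 and 210 in the controls, a log2 fold change of 0.29 (adjusted p = 0.838), with the controls between the mutants. *Rplp2* had 939 and 536 counts in the mutants and 783 and 727 in the controls, a log2 fold change of -0.17 (adjusted p = 0.759), again with the controls between the mutants.

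The members with an l, l1, al or x suffix other than *Rps27l* had at most 432 counts in a library, and 0 of those tested passed with edgeR. *Rpl22l1*, paralog of *Rpl22*, had 86 and 19 counts in the mutants and 3 and 0 in the controls, a log2 fold change of 4.86 (SE 1.30, adjusted p = 0.0870). This ratio rested on few control reads, and RSEM gave 152 and 29.0 counts in the mutants and 4 and 1 in the controls. *Rpl7l1*, paralog of *Rpl7*, had 432 and 294 counts in the mutants and 167 and 97 in the controls, with the groups apart (log2 fold change 1.32, SE 0.380, adjusted p = 0.102). *Rps4x*, the X-linked gene, had 315 and 79 counts in the mutants and 48 and 41 in the controls (log2 fold change 1.99, SE 0.655, adjusted p = 0.138). *Rps4l*, annotated as a processed pseudogene, had 72 and 58 counts in the mutants and 56 and 63 in the controls, an overlap, with a log2 fold change of -0.01. *Rpl36al* had 110 and 10 counts in the mutants and 24 and 9 in the controls (log2 fold change 1.69, adjusted p = 0.411), which overlap as well. *Rpl39l*, known from male germ cells, had 20 and 28 counts in the mutants and 23 and 13 in the controls (log2 fold change 0.29, adjusted p = 0.850). Of the other processed pseudogenes, *Rpl6l* had 13 and 0 counts in the mutants and 11 and 5 in the controls, and *Rpl32l* had 1 count each in mutant 1 and control 2.

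Tested alone, the mutants gave different calls. Against both controls, and with the lone sample assumed to vary like the controls, mutant 1 gave 29 members higher and 1 lower of 82 tested (3.85% and 2.17% of all genes in that fit). Mutant 2 gave 4 higher and 2 lower of 72 tested (5.79% and 4.37% of all genes in that fit). The 4 were *Rpl6*, *Rps9*, *Rps3* and *Rpsa*, and the 2 were *Rps27l* and *Rpl29*, of which *Rps3* and *Rpl29* are outside the rule for named genes and were chosen after their values were seen. *Rps3*, which lines the entry of the messenger RNA, had 2570 and 590 counts in the mutants and 263 and 168 in the controls. *Rpl29* had 319 and 30 counts in the mutants and 145 and 121 in the controls, so the mutants lay on opposite sides. These fits share their controls. With mutant 1 and with mutant 2 the log2 fold change was 4.76 and 2.61 for *Rpl6* and 4.26 and 1.97 for *Rps9*. It was 3.47 and 1.66 for *Rpsa* and -1.14 and -1.50 for *Rps27l*. The genes called in 1 fit and not in the other are not shown to differ between the mutants.

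Processed copies of ribosomal protein genes are numerous in the mouse genome, and the deposited tables treat reads that fit several genes differently. By sequence, 1543 annotated pseudogenes were at least 85% identical to a member over at least 60% of their length, and 80 of the 87 members had at least 1. The 1543 include 3 members, *Rpl6l*, *Rpl32l* and *Rps12l1*, with at most 13 counts in a library. *Rpl7a* had the most, 131. In the 37 members with a mean of at least 100 RSEM counts, the count matrix held between 0.461 and 1.60 times the RSEM count with a median of 1.06, and 30 were within 0.8 to 1.25. The 68 members tested in both tables had the same sign in 65. The median absolute difference of the log2 fold changes was 0.0891. The largest was 1.74, for *Rpl3*, at 3.19 in the matrix and 1.45 with RSEM. With RSEM counts 0 members were higher and 1 was lower, *Rps27l* (1.69% and 2.2% of its tested genes), and the median was 1.34. The counts of calls and the median thus differed little between the tables.

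For single genes the table mattered. *Rpl13a*, whose protein also takes part in silencing of inflammatory messages, had 161 and 77 matrix counts in the mutants and 63 and 54 in the controls, but 367 and 163 RSEM counts in the mutants and 132 and 108 in the controls. *Rpl23a*, at the tunnel exit, had 293 and 48 matrix counts in the mutants and 28 and 9 in the controls, and 589 and 91.1 RSEM counts in the mutants and 40 and 6 in the controls. *Rpl35* had 141 and 39 matrix counts in the mutants and 33 and 21 in the controls, and 269 and 73.2 RSEM counts in the mutants and 52 and 26 in the controls. *Rpl24* had 245 and 38 matrix counts in the mutants and 13 and 4 in the controls, and 439 and 71 RSEM counts in the mutants and 28 and 8 in the controls. These genes kept their order of libraries and, summed over the libraries, had a larger count in the RSEM table. *Rpl15* went the other way, with 2829 and 1480 matrix counts in the mutants and 1654 and 1301 in the controls, against 1617 and 1127 RSEM counts in the mutants and 1287 and 1049 in the controls. RSEM placed 1249 and 289 counts in the mutants and 368 and 51.9 in the controls on *Rpl15-ps3*, a copy identical to an *Rpl15* transcript over its whole length, where the matrix had 20 and 4 counts in the mutants and 0 in both controls. *Rpl15-ps3* was chosen after its values were seen, as were *Rpl3-ps1* and *Gm8730* below. The log2 fold change of *Rpl15* was 0.40 in the matrix and 0.10 with RSEM.

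For *Rps2* the sign depended on the table. With RSEM, *Rps2* had 3661 and 1598 counts in the mutants and 3147 and 2782 in the controls, and its copies together had 4352 and 2741 counts in the mutants and 388 and 378 in the controls. In the mutants most of the copies' reads lay on *Rps2-ps10*, which overlaps *Pde6a* and is 99.4% identical to *Rps2*. *Rps2-ps10* had 1921 and 1117 matrix counts in the mutants, against 9 and 8 counts in the controls. Both mutants stood far above both controls, and *Rps2-ps10* rose by 7.32 on the log2 scale (SE 0.389, adjusted p = 0.000577), or 7.50 with RSEM (adjusted p = 0.000364). *Pde6a* itself had 11 and 1 counts in the mutants and 10 and 7 in the controls. *Rps2* alone had a log2 fold change of 0.04 in the matrix and -0.31 with RSEM.

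Among the 61 copies tested in the matrix, 3 rose and 0 fell (1.77% and 1.98% of all tested genes). Beside *Rps2-ps10* these were *Gm44609* and *Gm8210*, and each of the 3 had at most 9 counts in a control. They passed the filter on low counts because they were high in the mutants, so the count of calls is a description. *Gm44609*, a copy of *Rpl23a* that overlaps *Adamts17*, had 551 and 545 counts in the mutants and 0 in both controls, at least 334-fold higher than a floor of 3 counts over the controls (adjusted p = 0.00145). Here RSEM gave 61.0 and 53.2 counts in the mutants and 0 in both controls. *Adamts17* had 31 and 48 counts in the mutants and 142 and 139 in the controls (log2 fold change -1.95, adjusted p = 0.0648). *Gm8210*, a copy of *Rpl29* that overlaps *Fhl2*, had 71 and 23 counts in the mutants and 0 in both controls, at least 28.6-fold higher than the same floor (adjusted p = 0.0469). RSEM gave it 0 and 26.6 counts in the mutants, so its call rests on the table. The labels give both groups the same strain and say nothing of littermates, so a genome stretch that came with the mutation and a difference in expression cannot be told apart for these copies.

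Of the other copies, the most read were *Gm15421*, *Rpl37rt* and *Gm14276*. Their log2 fold changes in the matrix were -0.33, 0.15 and -0.12 (edgeR adjusted p = 0.289, 0.683 and 0.778). *Gm15421*, a copy of *Rpl22l1* that overlaps *Orc5*, had the highest mean CPM of the copies, with 3533 and 4169 matrix counts in the mutants and 4569 and 4279 in the controls. RSEM left it 3.05 and 3.98 counts in the mutants and 1 and 0 in the controls, while *Orc5* had 24929 and 26900 counts in the mutants and 30919 and 27367 in the controls. *Rpl37rt* had 1183 and 981 counts in the mutants and 886 and 898 in the controls, and *Gm14276*, a copy of *Rps2*, had 700 and 775 in the mutants and 781 and 686 in the controls. *Rpl3-ps1* had 300 and 79.7 RSEM counts in the mutants and 0 and 2 in the controls (adjusted p = 0.0229 with RSEM), against 47 and 9 matrix counts in the mutants and 0 in both controls. *Rpl3* itself had 197 and 59 matrix counts in the mutants and 24 and 1 in the controls. *Gm8730*, a copy of *Rplp0*, was read in mutant 2 with 504 counts and had 8 counts in mutant 1 and 1 and 0 in the controls. All copies by sequence summed to 13334 and 13121 matrix counts in the mutants and 11211 and 10865 in the controls. With RSEM they summed to 9642 and 7149 in the mutants and 3678 and 4024 in the controls. Without *Rps2-ps10* the sums were 11413 and 12004 matrix counts in the mutants and 11202 and 10857 in the controls, and 5634 and 4764 RSEM counts in the mutants and 3659 and 4011 in the controls.

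**Figure D3:**
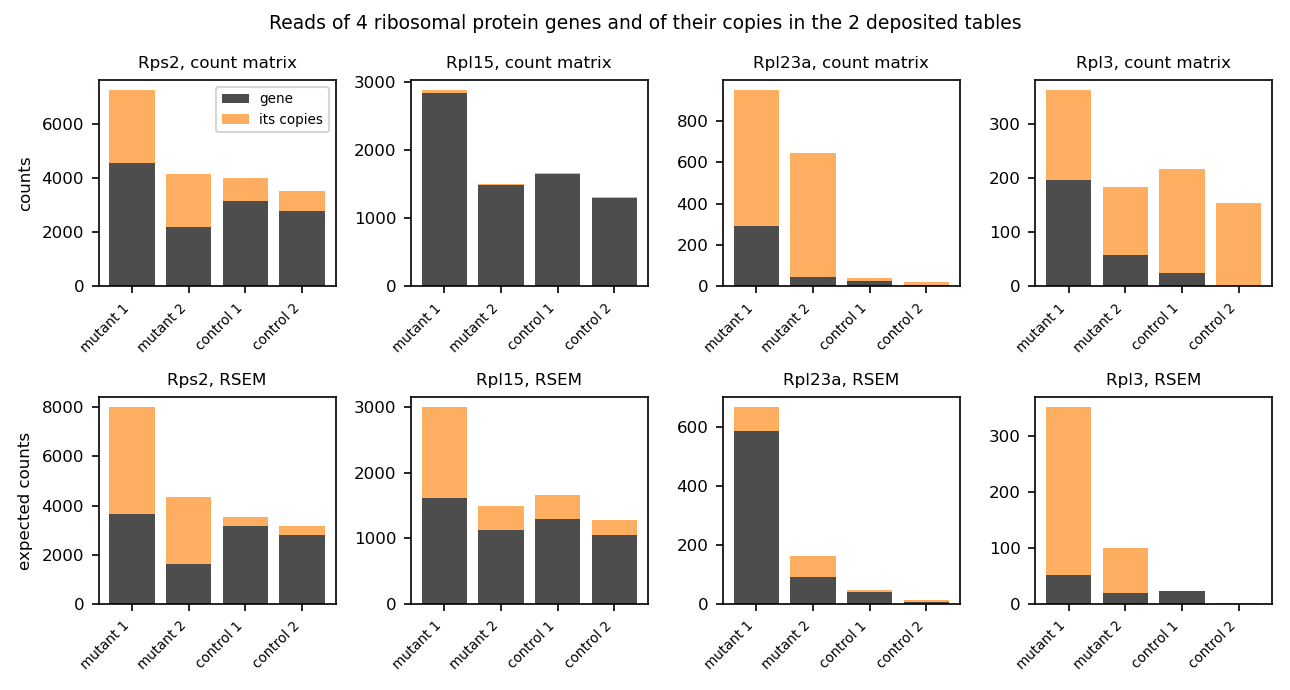
Bars stack the reads of *Rps2*, *Rpl15*, *Rpl23a* and *Rpl3* (dark) and of their copies by sequence (orange) in each library, from the count matrix (top, counts) and from RSEM (bottom, expected counts); each panel has its own axis from 0. For *Rps2* the copies add 4352 and 2741 RSEM counts in the mutants and 388 and 378 in the controls, and for *Rpl15* the matrix leaves nearly all reads on the gene.

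Other genes of the ribosome and its supply gave few calls. Of 4 tested ribosomal proteins outside the symbol rule 0 passed, and *Rps3a1* followed the members with 160 and 31.6 CPM in the mutants and 45.6 and 29.4 CPM in the controls (log2 fold change 1.36, adjusted p = 0.285). *Rack1*, a scaffold on the small subunit, was even at 60.4 and 43.7 CPM in the mutants and 54.6 and 49.2 CPM in the controls. Of 19 tested translation factors and partners whose messages also carry a pyrimidine tract, 1 rose and 0 fell (1.77% and 1.98% of all tested genes), with a median log2 fold change of 0.11. The 1 was *Eef1a1*, which delivers aminoacyl-tRNA to the ribosome. It had 633 and 359 CPM in the mutants, against 144 and 134 CPM in the controls, and rose by 1.84 on the log2 scale (SE 0.272, adjusted p = 0.0250).

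Ribosome biogenesis factors had 0 of 70 passing, with a median of 0.07. The most abundant were *Brix1*, at 733 and 939 CPM in the mutants and 1551 and 1251 CPM in the controls (log2 fold change -0.74, adjusted p = 0.0854), and *Rsl1d1*, at 708 and 735 CPM in the mutants and 1037 and 909 CPM in the controls (log2 fold change -0.43, adjusted p = 0.158). RNA polymerase I and its factors had 0 of 14 passing with a median of 0.32, among them *Taf1a* at 491 and 554 CPM in the mutants and 569 and 582 CPM in the controls, and *Rrn3* at 62.0 and 64.6 CPM in the mutants and 75.7 and 81.6 CPM in the controls. Genes that control ribosomal protein messages and their assembly had 0 of 17 passing, with a median of 0.25. Among these *Larp4* had 591 and 644 CPM in the mutants and 614 and 461 CPM in the controls, and *Mdm2* had 176 and 208 CPM in the mutants and 191 and 185 CPM in the controls. Of 72 tested mitochondrial ribosomal protein genes 0 rose and 1 fell (1.77% and 1.98% of all tested genes), *Mrps14*, at 53.6 and 57.9 CPM in the mutants and 112 and 99.4 CPM in the controls (log2 fold change -0.92, SE 0.153, adjusted p = 0.0338). Their median was 0.10, and mutant 1 was the highest library for 49 of 78, against 30.0% of all tested genes. Each of these medians stands beside 0.05 for all tested genes.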

How the data were processed

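RNA of mouse oocytes was sequenced from 2 mutant and 2 control Smart-Seq2 libraries, grouped and numbered by their titles. The deposited matrix gives raw read counts of each gene as whole numbers. A further table for each library, deposited by the authors, gives RSEM expected counts, TPM, FPKM and lengths in bases, per the file headers. FPKM as deposited was not used. The submitters' processing notes name cutadapt 1.16, STAR, RSEM and mm10. How they were set, what made the matrix and whether strand was used were not given in the sources used here. Values of overlapping genes, antisense genes and near-identical copies are therefore uncertain.

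The count matrix was tested over all genes with the quasi-likelihood test of edgeR 4.0.16 in R 4.3.3 (TMM, filterByExpr by group, a genotype term only, Benjamini-Hochberg adjusted p under 0.05), which leaves 2 residual degrees of freedom. The SE of a log2 fold change comes from its F value. Ratios of single libraries used CPM with 2 counts added. RSEM expected counts were rounded for the same test. Alternatives were DESeq2 1.42.0, limma 3.58.1 on log2(TPM + 1) and log2(TPM + 0.1) of genes with a mean of at least 1 TPM, other scalings and filters, a replicate block and each library left out. The statistics were tested on simulated data. Copies were found with BLAST 2.17.0 against GENCODE M21 transcripts, whose GRCm38 positions are given, with tables joined in Python 3.11.15. Start windows come from RefSeq. Amplified reads are not independent molecules, so the floor of 3 counts covers counting error only.

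Members named are those past the threshold, *Rpsa* and the stalk genes, suffixed paralogs with a read, the 6 most abundant of each subunit, the 3 largest and 3 smallest log2 fold changes, and the 4 whose tables differ most. Of each pathway list the genes past the threshold are named, or else the 2 most abundant; of each marker list up to 3; and of the copies the 4 most read and those past the threshold. The members and lists were chosen with earlier results of these data known.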

Additional observations from a re-analysis of the deposited data

How the results depend on the processing

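The direction of the median over the members held under every alternative run, and the number of calls did not. The median, 1.31, lay between 0.37 and 2.19 with a library left out. The members called, 1 of 72, became 23 with DESeq2, 17 with no filter (5.01% of its tested genes), 4 with a minimum mean of 10 CPM (9.48%), 2 with log2(TPM + 0.1) and 24 with a replicate block (7.83%), and lay between 0 and 30 with a library left out. In the filter at 10 CPM fewer members were tested, and 17 had a positive log2 fold change. The 23 calls with DESeq2 stand beside 11.6% of its tested genes. Of the 24 with the block 23 were higher and 1 lower (4.71% and 3.12% of its tested genes). For log2(TPM + 0.1) the share of all tested genes is not given. With a library left out the calls over all genes moved as well, so the range over the members is a description. Over all genes 581 calls became 1942 with DESeq2, 1322 with no filter, 1213 with the block, 286 with log2(TPM + 1) and 302 with log2(TPM + 0.1), and lay between 22 (without control 1) and 1688 (without mutant 1) with a library left out. Beyond that the cause was not tested. The log2 ratio of the summed levels, 0.35, was -0.23 without mutant 1 and 0.93 without mutant 2, and 0.66 without the 3 most abundant members. The replicate numbers do not pair the libraries by any label, and same-numbered libraries had a correlation of their deviations of 0.18, so the block is no stronger design here. With the replicate block *Rpl6* (adjusted p = 3.25e-05), *Rps9* (adjusted p = 0.000187) and *Rpsa* (adjusted p = 0.00222) passed. Other named members higher in the same edgeR fit were *Rpl9* (adjusted p = 0.00264), *Rpl24* (0.00695), *Rps6* (0.0104), *Rpl23a* (0.0124), *Rpl22l1* (0.0249), *Rpl10* (0.0405) and *Rpl7l1* (0.0420). *Rps27l* passed as lower (adjusted p = 0.00693).

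Reversals were found in named members near 0 or resting on mutant 1. *Rps2* was at -0.31 with RSEM, -0.038 with the replicate block and -0.20 on both TPM scales. *Rps4l* was at 0.086 with library totals only, 0.043 with log2(TPM + 1) and 0.049 with log2(TPM + 0.1). With RSEM *Rpl39l* was at -0.0026, and with the block *Rplp1* was at -0.066. With a library left out, the log2 fold change ran over -0.11 to 0.76 for *Rpl15*, -0.085 to 0.56 for *Rpl32*, -0.83 to 2.56 for *Rpl36al*, -0.12 to 0.76 for *Rpl39l*, -0.027 to 0.98 for *Rpl5* and -6.07 to 0.51 for *Rpl6l*. It ran over -0.035 to 1.59 for *Rplp0*, -1.23 to 0.996 for *Rplp1*, -0.60 to 0.13 for *Rplp2*, -0.60 to 1.28 for *Rps14*, -0.55 to 0.44 for *Rps2* and -0.14 to 0.095 for *Rps4l*. Alternatives for single libraries (RSEM, library totals, 0.5 counts added), chosen after seeing the data, put the median ratio of mutant 1 between 2.05 and 2.23 and that of mutant 2 between 0.45 and 0.53.

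With 2 libraries a group, members with few control reads limit the precision, and *Rps27l* kept its direction in every alternative but did not pass when a control was left out.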
